A study of Mus musculus with 32 samples.

Results

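Brown adipose tissue (BAT) and inguinal white adipose tissue (iWAT) of the same wild-type mice were compared across the transcriptome. The comparison used 8 of the 32 arrays in the series, namely the 4 wild-type arrays of each depot, which were chosen by the tissue and genotype in the sample labels and joined gene by gene. All of these mice were males on the C57BL/6J background, wild type at Gpr146 (the gene of an orphan G protein-coupled receptor), aged 20 weeks, fed a high-fat diet (HFD) for 3 months and fasted overnight before the tissues were taken. Their littermates carried a whole-body Gpr146 knockout under the same diet and fast, and the 8 BAT and iWAT arrays of those littermates served as a second set of mice. Each array held RNA of 1 depot from 1 mouse, and the labels give the mouse a number that is shared by its depots. Every depot difference below was therefore measured in fasted males on a high-fat diet, and a lean or fed mouse was not part of the comparison.

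BAT burns fuel to make heat. Its adipocytes hold many mitochondria and the inner-membrane protein UCP1, which lets protons back into the matrix without making ATP, and sympathetic nerves switch this on through beta-adrenergic receptors and cAMP. Adipocytes of iWAT store most of their fat in a single large droplet and secrete hormones such as leptin, yet this depot is also known for beige adipocytes, which can acquire UCP1 in the cold. The depots come from different embryonic mesoderm, and adult fat keeps a record of its position in the body in its Hox genes.

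The deposited values were log2 intensities from Affymetrix Mouse Gene 2.1 ST arrays for 24646 named genes, in 1 table per tissue. The tables had been scaled apart, with array medians from 2.82 to 2.85 in BAT and from 3.65 to 3.70 in iWAT, so the 8 arrays were given a common distribution by quantile normalization before depots were compared. Levels below are log2 intensities on this joint scale, and differences are BAT minus iWAT. Because each depot was a table of its own, an error shared by a whole table cannot be told apart from the depot. Arrays correlated at 0.988 to 0.991 within BAT, at 0.966 to 0.994 within iWAT and at 0.882 to 0.918 between depots. Gpr146 checked the genotype labels: in the deposited tables all 4 knockout values lay below all 4 wild-type values in both depots, by a mean of 1.16 in BAT and 1.55 in iWAT.

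Markers of other tissues set some arrays apart. On iWAT arrays 1 and 2 the mean of 12 B lymphocyte genes was 7.35 and 7.31, against 3.17 and 2.86 on iWAT arrays 3 and 4 and 2.54 to 2.77 in BAT, and T lymphocyte genes followed the same split at 6.76 and 7.07 against 3.75 and 3.33. Ccl21a, a chemokine made by lymph node stroma, stood at 10.21 and 10.20 on those arrays and at 4.53 and 3.81 on the other 2 iWAT arrays. The inguinal pad is known to hold a lymph node, whose part in these values was not tested. Skeletal muscle genes were high on BAT arrays 2 and 3, where the list mean was 6.09 and 6.85 against 3.25 and 3.26 on BAT arrays 1 and 4, and iWAT array 4 stood at 4.25 against 2.90 to 3.19 on the other iWAT arrays. The part of neighbouring muscle was not tested. These are called the lymphocyte-high iWAT arrays and the muscle-high BAT arrays below, and named genes whose call changes without them are given beside the result or in the closing part on processing. Without both kinds, BAT arrays 1 and 4 and iWAT arrays 3 and 4 remained. That set still held iWAT array 4 with its higher muscle genes.

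**Figure D1:**
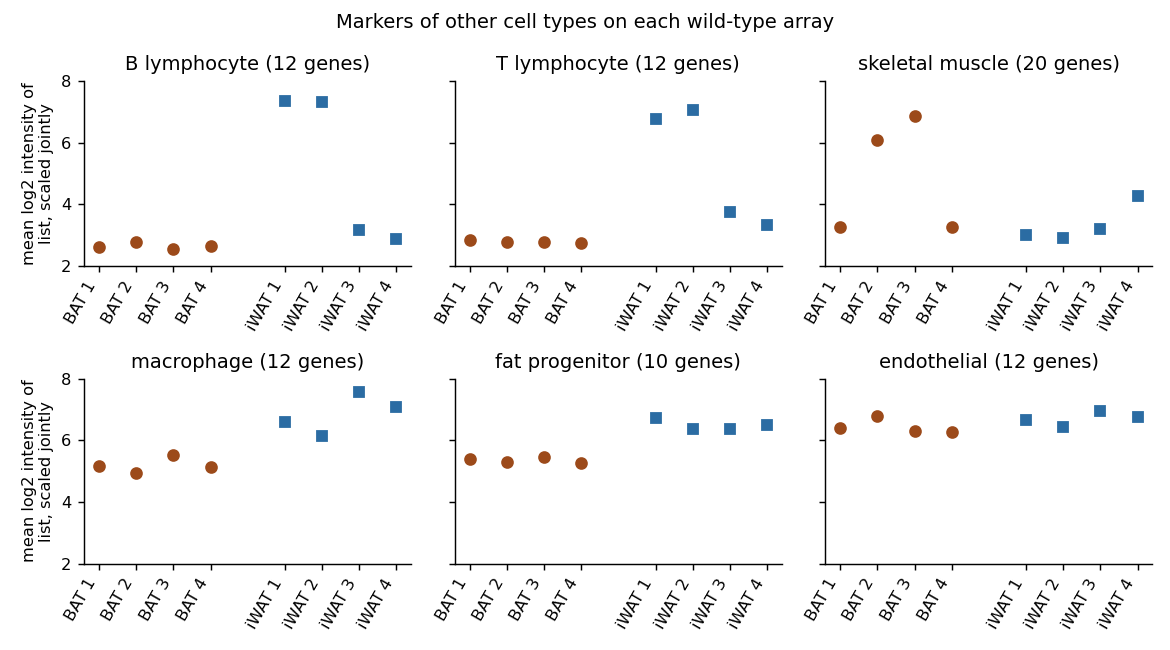
Mean log2 intensity of 6 lists of cell type markers on each of the 8 wild-type arrays, on the joint scale, with BAT as circles and iWAT as squares. B and T lymphocyte genes were high on iWAT arrays 1 and 2, muscle genes on BAT arrays 2 and 3, and macrophage and progenitor genes on every iWAT array relative to every BAT array.

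A large part of the transcriptome differed. With limma and Benjamini-Hochberg adjustment over all genes, 11948 genes (48.5%) passed an adjusted p of 0.05, of which 6239 (25.3%) were higher in BAT and 5709 (23.2%) in iWAT. A 2-fold difference as well was reached by 3291 genes (13.4%), split into 1630 higher in BAT (6.61%) and 1661 higher in iWAT (6.74%). The 2-fold count is the one used below unless stated. Both counts depended on how the arrays were scaled. The count at the adjusted p alone went to 12900 higher in BAT and 3664 higher in iWAT when the arrays were only given equal medians. Under that scaling the 2-fold split was 2426 and 1235. With no joint scaling it was 735 higher in BAT and 5353 higher in iWAT. The median over all genes was 0.01 on the joint scale, 0.31 with equal medians and -0.53 on the deposited values, so small differences between depots rest on the scaling. Without these 4 arrays the 2-fold counts were 1522 and 1529, and they held 1382 of the 1630 genes (84.8%) and 1227 of the 1661 genes (73.9%), while the difference of every one of these 3291 genes kept its sign.

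Ucp1, which encodes the uncoupling protein, was among the most depot-specific genes. Its level in BAT was 11.27, 11.41, 11.22 and 11.41, and in iWAT it was 4.47, 3.23, 4.45 and 3.27. The gap was 7.47 on the log2 scale, about 178-fold (SE 0.29, n = 4 mice, limma adjusted p = 1.9e-07), and in rank the gene went from the 99.9th percentile of a BAT array to the 57.9th of an iWAT array. Cox7a1, a cytochrome c oxidase subunit of heart, muscle and brown fat, had the largest difference of any named gene. It was 10.46, 10.30, 10.48 and 10.28 in BAT and 3.02, 2.45, 2.81 and 2.82 in iWAT, a difference of 7.60 (SE 0.12, adjusted p = 4.0e-09). Cidea, a lipid droplet protein long used as a brown fat marker, lay between 10.84 and 11.14 in BAT and between 4.69 and 5.73 in iWAT. Elovl3, an elongase of very long fatty acids that is induced in cold-exposed brown fat, lay between 7.18 and 8.20 in BAT and between 1.75 and 1.92 in iWAT. For all of these genes the depots were far apart, with no overlap between mice. Such a gap between all 4 values of each depot was seen with BAT above in 24.5% of all genes and with iWAT above in 22%.

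Of the 19 measured brown fat effector genes, 17 were 2-fold higher in BAT and none was in iWAT, against 6.61% of all genes in the first direction, and the list median was 4.49 against 0.01 over all genes. Beside the genes above, the list held Cox8b (difference 6.32), another muscle-type cytochrome oxidase subunit, Pank1 (5.65), which starts coenzyme A synthesis, and Otop1 (5.23), a proton channel. S100b (5.26), a calcium-binding protein, is both a product of brown adipocytes and a marker of glia. The other 7 genes of the Schwann cell list differed by -1.33 to 0.27 and none of those was 2-fold higher in BAT. Gyk, the glycerol kinase, was 4.93 higher in BAT, and Kng2, a kininogen outside the list, was 6.39 higher. Dio2, which activates thyroid hormone inside brown fat, spread widely, at 4.31, 5.26, 3.67 and 3.82 in BAT against 2.08 to 2.27 in iWAT, a difference of 2.08 (SE 0.30, adjusted p = 4.6e-04). The exception was Clstn3, named after its value was seen, at a difference of -0.24, which did not pass with the mouse number as a block (limma adjusted p = 0.071). Thermogenic function has been tied to a short form of its transcript, which a value per gene symbol does not separate.

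**Figure D2:**
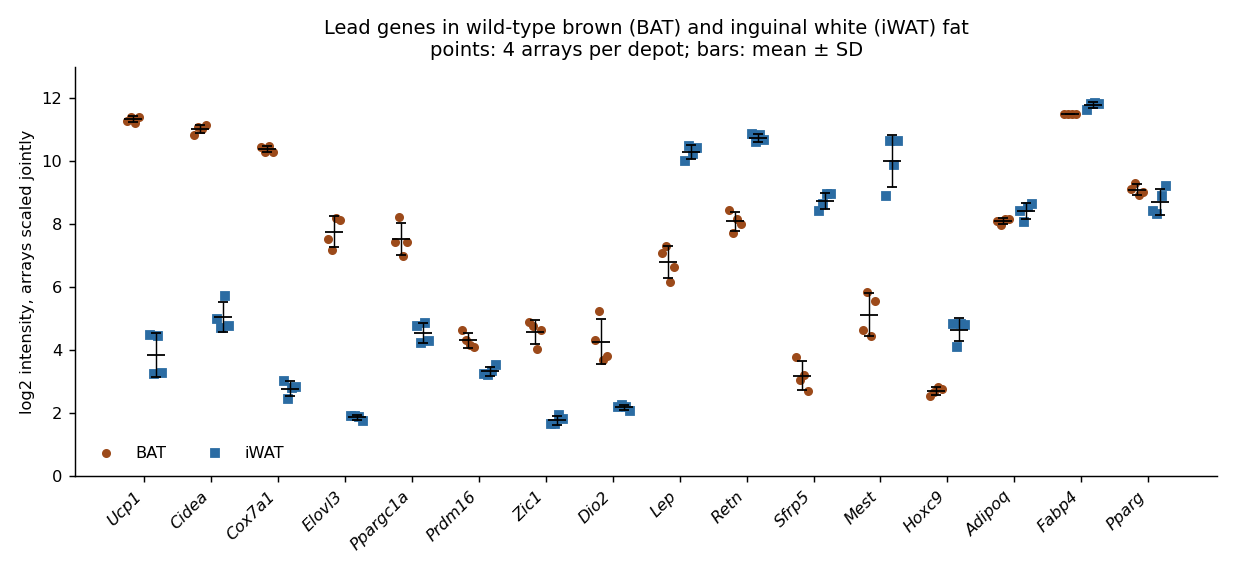
Log2 intensity, on the joint scale, of 16 lead genes on the 4 BAT arrays (circles) and 4 iWAT arrays (squares), with mean and SD. The depots did not overlap for any of the brown fat genes on the left or for Lep, Retn, Sfrp5, Mest and Hoxc9, whereas the general adipocyte genes Adipoq, Fabp4 and Pparg on the right lay close together.

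The transcription factors and coactivators that run this program differed less, and not all in 1 direction. Of 20 regulators, 7 were 2-fold higher in BAT and 2 in iWAT, against 6.61% and 6.74% of all genes, with a median difference of 0.66. Ppara, the receptor that drives fatty acid oxidation genes, led with 7.90, 7.99, 7.76 and 7.84 in BAT against 3.01, 3.01, 3.00 and 3.39 in iWAT (difference 4.77, SE 0.11, adjusted p = 1.7e-08). The mitochondrial coactivators Ppargc1b and Ppargc1a followed at 3.30 and 2.99, and Esrrg, an estrogen-related receptor that acts with them, at 2.95. Ppargc1a varied among mice, with BAT at 7.43, 8.23, 6.99 and 7.44 and iWAT at 4.76, 4.22, 4.85 and 4.30, without overlap. Prdm16, the factor best known for fixing brown over muscle fate, fell just short of the 2-fold line. It measured 4.64, 4.33, 4.16 and 4.10 in BAT and 3.24, 3.21, 3.32 and 3.53 in iWAT, a difference of 0.98 (SE 0.13, adjusted p = 3.0e-04), which did not pass on the deposited values with no joint scaling. Without the muscle-high arrays the Prdm16 difference was 1.03 (limma adjusted p = 0.0047), past the 2-fold line. Zbtb16 and Foxp1, both zinc finger or forkhead factors with reported roles in thermogenic fat, were higher in iWAT by 1.25 and 1.74. Foxp1 was 8.0 and 7.89 on the lymphocyte-high iWAT arrays and 6.76 and 6.40 on the other 2, and without the former its difference was -1.10 with an adjusted p of 5.5e-04.

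Genes that label the origin of classical brown fat gave a mixed picture. Zic1, a zinc finger factor of dorsal somites, was 4.88, 4.78, 4.03 and 4.65 in BAT and 1.66 to 1.95 in iWAT, a difference of 2.81 (SE 0.18, adjusted p = 2.8e-06). Lhx8, a LIM homeobox factor, was 1.12 higher in BAT (0.96 without the lymphocyte-high arrays), and Mpzl2, an adhesion protein, was 4.36 higher. Epsti1, which appears in the same marker sets but is also an interferon-induced gene, went the other way by 3.02, at 8.14 and 8.70 on iWAT arrays 1 and 2, 6.45 and 5.52 on arrays 3 and 4, and 3.92 to 4.71 in BAT. Without the lymphocyte-high arrays it was still higher in iWAT, by 1.86. Over the 11 lineage genes, 4 were 2-fold higher in BAT and 1 in iWAT, against 6.61% and 6.74% of all genes. Without the lymphocyte-high arrays the lineage counts were 3 and 3.

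Beige adipocyte markers leaned towards iWAT. Of 10 such genes 5 were 2-fold higher in iWAT, against 6.74% of all genes, and none was in BAT. Without the lymphocyte-high arrays 4 were, and without the muscle-high ones as well 3. Tbx1, a T-box factor, was 4.35, 3.95, 4.01 and 3.56 in iWAT and 2.46 to 2.69 in BAT (difference -1.40, SE 0.15, adjusted p = 7.8e-05). Ear2, a ribonuclease, was 1.25 higher in iWAT. Tmem26 gave 2.51 to 2.80 in BAT and 2.53 to 3.09 in iWAT, which did not pass the test (difference -0.20, SE 0.13, adjusted p = 0.23). The immune receptors Cd40 and Tnfrsf9 and the nuclear body protein Sp100 tracked the lymphocyte-high arrays in part. Cd40 measured 5.68 and 5.64 on those arrays and 3.68 and 3.51 on the other iWAT arrays, and its difference of -1.47 was -0.43 without them. Tnfrsf9 no longer passed without them (difference -0.24, adjusted p = 0.29), and Sp100 dropped to -0.66. Without both kinds of array Sp100 did not pass (adjusted p = 0.075).

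The uncoupling proteins themselves split by depot. Ucp3, the muscle and brown fat paralog, was 7.90, 7.14, 7.64 and 7.64 in BAT and 5.22, 4.07, 5.78 and 5.23 in iWAT, a difference of 2.51 (SE 0.33, adjusted p = 2.5e-04). Ucp2, which is widespread in immune and other cells, was 5.55 to 5.63 in BAT and 7.65, 7.64, 7.56 and 7.16 in iWAT, a difference of -1.90 (SE 0.11, adjusted p = 2.1e-06). Without the lymphocyte-high arrays the difference was -1.82.

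**Figure D3:**
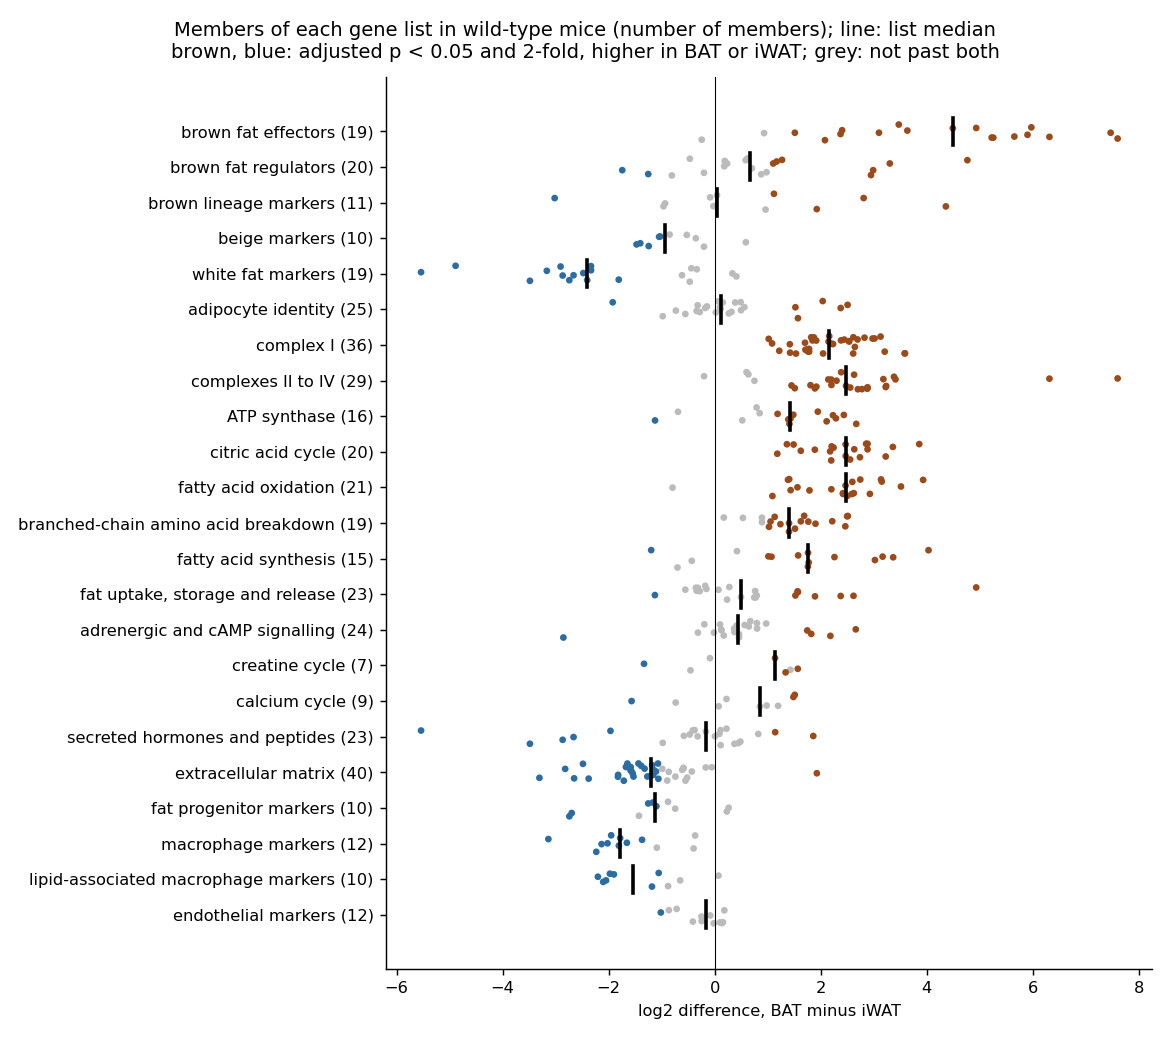
Log2 difference (BAT minus iWAT) of every measured member of 23 gene lists, with 1 point per gene and a line at each list's median. Members of the 6 lists of mitochondrial energy metabolism, from complex I to branched-chain amino acid breakdown, lay almost wholly on the BAT side, while white fat markers, matrix, progenitor and macrophage genes lay on the iWAT side.

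The respiratory chain separated the depots almost gene for gene. All 36 measured subunits of complex I, the NADH dehydrogenase, were 2-fold higher in BAT, against 6.61% of all genes. Their differences ran from 1.02 to 3.59 with a median of 2.15. Ndufb6 lay between 8.15 and 8.32 in BAT and between 4.44 and 4.81 in iWAT, and Ndufb5 differed by 3.58. Among complexes II to IV 25 of 29 genes were 2-fold higher in BAT with a median of 2.48, including Cyc1 (3.41) and Uqcrq (3.38) of complex III and the succinate dehydrogenase subunits Sdhb (3.23) and Sdhd (2.88). Spread among mice was small for these genes. Sdhb, for example, was 9.75, 9.67, 9.77 and 9.70 in BAT and 6.46, 6.33, 6.64 and 6.54 in iWAT.

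ATP synthase, the enzyme that UCP1 bypasses, also stood higher in BAT, though by less. Of its 16 genes 11 were 2-fold higher in BAT, against 6.61% of all genes. The list median was 1.42, below the medians of the other respiratory complexes. Atp5o differed by 2.67 and the catalytic-core subunit Atp5a1 by 2.44. One copy of the membrane ring subunit, Atp5g1, named after its value was seen, was higher in iWAT by 0.69. Its level was low in both depots, at 1.91 to 2.07 in BAT and 2.59 to 2.74 in iWAT. These lay at the 16.9th and 37.7th percentiles of an array. The clearest exception was Atpif1, the inhibitor of the synthase, at 6.19, 5.82, 6.17 and 5.87 in BAT against 7.05, 7.13, 7.22 and 7.17 in iWAT (difference -1.13, SE 0.10, adjusted p = 3.2e-05). It was the only member of the 6 mitochondrial lists that was 2-fold higher in iWAT. Without the lymphocyte-high and muscle-high arrays complexes II to IV also held 1 such gene.

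Fuel breakdown followed the same line. All 20 citric acid cycle genes were 2-fold higher in BAT, against 6.61% of all genes, with a median of 2.47. They were led by the succinyl-CoA ligase subunits Sucla2 (10.09 to 10.17 against 6.18 to 6.36, difference 3.86) and Suclg1 (3.36). In fatty acid oxidation 20 of 21 genes were 2-fold higher in BAT, led by Acadvl, the very long chain acyl-CoA dehydrogenase, at 9.81 to 9.86 in BAT and 5.59 to 6.05 in iWAT. Slc25a20, the carnitine carrier, differed by 3.52, the isomerase Eci1 by 3.15 and the thiolase Acaa2 by 3.14. The exception, named after its value was seen, was Cpt1a, the liver form of the gatekeeper enzyme, which was 0.80 higher in iWAT (adjusted p = 0.037), and which did not pass without the lymphocyte-high and muscle-high arrays or with equal array medians. Branched-chain amino acid breakdown had 15 of 19 genes 2-fold higher in BAT and a median of 1.40, with Pccb at 2.51 and Bckdha at 2.50. None of its members was 2-fold higher in iWAT. In the knockout littermates this list was smaller in both respects, with 7 of 19 genes and a median of 0.87, but the change between genotypes was not tested for a list.

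Promoters of these genes were searched for the binding letters of the estrogen-related receptors, since Esrrg was itself higher in BAT. RefSeq promoters (GRCm38.p6, 250 bases before to 50 after the gene start) were matched for 17842 of the 24646 genes and read on both strands. The extended site TNAAGGTCA was found in 1.21% of all promoters, in 1.5% of those of genes 2-fold higher in BAT and in 0.835% of those 2-fold higher in iWAT. Its core AAGGTCA, which every extended site contains, was in 4.70%, 6.49% and 3.76%. The cAMP response element TGACGTCA was in 2.65%, 3.32% and 2.09%. Among the 114 mitochondrial genes with a promoter, none held the direct repeat and 3 (2.63%) held the extended site. Those of Sdhd (chr9:50603800-50604099, minus strand) and Ndufb4 (chr16:37654319-37654618, minus strand) are shown, as the 2 of these genes that were 2-fold higher in BAT, with the matched letters in capitals. The third, Atp5g3 of ATP synthase, was 0.52 higher in BAT. The match in Sdhd lies on the opposite strand, 36 bases past the start, and that in Ndufb4 starts 57 bases before it.
Sdhd: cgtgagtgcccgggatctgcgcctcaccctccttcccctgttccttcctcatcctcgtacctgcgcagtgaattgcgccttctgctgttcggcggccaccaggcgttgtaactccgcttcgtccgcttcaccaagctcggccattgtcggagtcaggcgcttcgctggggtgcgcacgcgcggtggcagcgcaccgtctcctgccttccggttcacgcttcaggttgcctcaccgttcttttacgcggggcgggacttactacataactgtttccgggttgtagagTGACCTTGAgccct
Ndufb4: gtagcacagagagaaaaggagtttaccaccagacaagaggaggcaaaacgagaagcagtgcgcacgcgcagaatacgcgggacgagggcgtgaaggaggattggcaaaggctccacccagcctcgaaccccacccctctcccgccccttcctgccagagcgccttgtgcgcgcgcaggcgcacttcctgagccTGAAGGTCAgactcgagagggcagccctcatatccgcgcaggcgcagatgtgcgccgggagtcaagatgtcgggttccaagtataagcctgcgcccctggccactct
Sdhd was higher in BAT by 2.88 and Ndufb4, which was chosen for its promoter, by 2.05 (7.64 to 7.96 against 5.63 to 5.89). Most promoters of the genes higher in BAT held none of these letters.

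Fatty acid synthesis was also higher in BAT in these fasted mice. Of 15 genes 11 were 2-fold higher in BAT and 1 in iWAT, against 6.61% and 6.74% of all genes, with a median of 1.76. The count towards iWAT was near that share. Elovl6, which elongates newly made palmitate, differed by 4.03, Thrsp, a lipogenic regulator, by 3.37, Fasn, the fatty acid synthase, by 3.17 and the mitochondrial carboxylase Acacb by 3.02. Fasn varied widely in BAT, at 11.02, 9.94, 10.25 and 9.37, but stayed above the iWAT values of 7.02, 6.69, 7.42 and 6.78. The desaturase Scd2 was higher in iWAT by 1.20, at 7.92 and 7.84 on the lymphocyte-high arrays and 6.89 and 7.33 on the other 2. Without those arrays its difference was -0.84 and no longer passed (adjusted p = 0.058), while without both kinds it was -0.92 and did (adjusted p = 0.020). In fat uptake, storage and release 7 of 23 genes were 2-fold higher in BAT and 1 in iWAT, against 6.61% and 6.74% of all genes. The triglyceride synthesis enzymes Gpam (2.62), Agpat2 (2.38) and Gpd1 (1.89) were higher in BAT, whereas the fatty acid binding protein Fabp5 was higher in iWAT by 1.13.

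Genes of the adipocyte in general leaned less to 1 depot than the mitochondrial lists. Over 25 such genes the median difference was 0.11, with members in both directions from -1.92 to 2.51. Of them 5 were 2-fold higher in BAT and 1 in iWAT, against 6.61% and 6.74% of all genes. The count towards BAT was thus above the share of all genes. Without the lymphocyte-high arrays, and without both kinds of array, the counts were 5 and 2. The list median turned to -0.19 and -0.06 in these sets. In the knockout littermates it was -0.35, with 1 gene 2-fold higher in BAT and 3 in iWAT. Pparg, the master regulator of adipocyte formation, was 9.10, 9.32, 8.94 and 9.03 in BAT and 8.42, 8.31, 8.90 and 9.21 in iWAT, so the groups overlapped (difference 0.39, SE 0.19, adjusted p = 0.13), although with equal array medians it passed as higher in BAT. Adipoq, which encodes adiponectin, was 7.97 to 8.17 in BAT and 8.08 to 8.63 in iWAT (difference -0.32, SE 0.12, adjusted p = 0.055). With the mouse number as a block this value passed the threshold (limma adjusted p = 0.035). It also passed without the lymphocyte-high arrays (-0.52, adjusted p = 0.0043) and without both kinds of array (-0.47, adjusted p = 0.026), whereas with equal array medians it turned to 0.45. Fabp4, the adipocyte fatty acid binding protein, held the same rank on all 4 BAT arrays, 11.50 on the joint scale, against 11.62 to 11.86 in iWAT. Its difference of -0.28 passed (adjusted p = 0.013) but turned to 0.90 with equal medians and to 0.05 on the deposited values, so no direction is given. Members that did differ were Cebpb, an early adipogenic factor (2.51), Slc2a4, the insulin-responsive glucose transporter (2.04), and Plin4, a lipid droplet coat protein that was 1.92 higher in iWAT.

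The receptors and enzymes that bring the sympathetic signal into the cell differed unevenly. Of 24 genes 4 were 2-fold higher in BAT and 1 in iWAT, against 6.61% and 6.74% of all genes, and the median was 0.43. The count towards iWAT was no higher than that share. Adra1a, an alpha-1 receptor, was 6.01, 5.81, 5.84 and 5.78 in BAT and 2.81, 3.12, 3.30 and 3.57 in iWAT, a difference of 2.66 (SE 0.15, adjusted p = 1.5e-06). Adrb1 was 1.82 higher in BAT. Adrb3, the receptor most specific to mouse adipocytes, measured 6.42, 7.28, 6.81 and 6.77 in BAT and 5.81, 4.58, 6.67 and 6.34 in iWAT, a difference of 0.97 that did not pass (SE 0.41, adjusted p = 0.075) but did with equal array medians. Akap1, which tethers protein kinase A to mitochondria, was 2.18 higher in BAT. Adcy5, an adenylyl cyclase, ran opposite to the other called members at 3.91 to 4.32 in BAT and 6.28 to 7.56 in iWAT (difference -2.86, SE 0.25, adjusted p = 2.2e-05). Gpr146 itself was 5.47, 5.68, 5.64 and 5.86 in BAT and 5.02, 5.22, 6.40 and 6.08 in iWAT, a difference of -0.02 (SE 0.29, adjusted p = 0.97). Without the lymphocyte-high arrays, on which it was lowest in iWAT, the difference was -0.59 (adjusted p = 0.011), and without both kinds of array it was -0.57 and did not pass (adjusted p = 0.058).

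Routes of heat production that do not need UCP1 were less clear. In the creatine cycle Slc6a8, the creatine transporter, and Alpl, the phosphatase placed in that cycle, were higher in BAT by 1.57 and 1.34, and Gamt, the last enzyme of creatine synthesis, was higher in iWAT by 1.33. Ckmt2, the mitochondrial creatine kinase, was 2.03, 4.26, 5.15 and 2.20 in BAT and 1.89 to 2.12 in iWAT. Its high values in BAT were those of arrays 2 and 3, where skeletal muscle genes were also high, and its difference did not pass (1.43, adjusted p = 0.090). Calcium cycling showed the same mixture. The release channels Itpr2 and Ryr2 were higher in BAT by 1.51 and 1.49, the pump Atp2a3 was higher in iWAT by 1.57 (1.01 without the lymphocyte-high arrays), and Sln, a muscle regulator of the pump, was 1.87, 2.84, 4.32 and 2.03 in BAT, again highest on the muscle-high arrays. Its difference was 1.20 on all arrays (adjusted p = 0.058) and 0.40 without the muscle-high ones (adjusted p = 0.028).

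White fat hormones and markers stood out on the other side. Of 19 white fat markers 13 were 2-fold higher in iWAT and none was in BAT, against 6.74% and 6.61% of all genes. The list median was -2.41. Lep, the gene of leptin, was 7.08, 7.31, 6.16 and 6.63 in BAT and 10.01, 10.48, 10.21 and 10.43 in iWAT, a difference of -3.49 or about 11.2-fold (SE 0.23, adjusted p = 4.3e-06). In rank it went from the 91.0th percentile of a BAT array to the 99.8th of an iWAT array. Retn, which encodes resistin, was 8.44, 7.73, 8.17 and 7.99 in BAT and 10.60 to 10.87 in iWAT (difference -2.66). Sfrp5, a secreted Wnt antagonist, had the largest difference of any named gene towards iWAT, at 3.78, 3.06, 3.21 and 2.72 in BAT and 8.41, 8.64, 8.94 and 8.94 in iWAT (difference -5.54, about 46.6-fold, SE 0.22, adjusted p = 1.9e-07). Mest, an imprinted gene tied to fat expansion, was 4.64, 5.85, 4.45 and 5.55 in BAT and 8.90, 10.62, 9.87 and 10.64 in iWAT (difference -4.89). Slc7a10, an amino acid transporter of white adipocytes, differed by -3.17.

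Other genes that led the iWAT side were signalling antagonists and secreted proteins. Bmp3, a member of the bone morphogenetic protein family that opposes the others, was 2.49 to 2.89 in BAT and 7.55 to 7.80 in iWAT (difference -5.07, SE 0.10, adjusted p = 1.1e-08). Chrdl1, which binds bone morphogenetic proteins, differed by -4.88 and Serpina3n, a protease inhibitor of a multigene family, by -4.69. Zim1, an imprinted zinc finger gene, differed by -4.15. The leaders Cxcl13, Cd180 and Cd209b are genes of lymphoid tissue and macrophages. Cd209b was 8.22 and 7.22 on the lymphocyte-high arrays, 4.50 and 4.67 on the other iWAT arrays and 1.82 to 1.95 in BAT, and its difference of -4.28 was -2.63 without the former. Among secreted factors more generally, Igf1 was 2.87 higher in iWAT, while Nampt, an enzyme that is also secreted, and Nrg4, a growth factor known as a brown fat product, were higher in BAT by 1.86 and 1.14. Nrg4 was under the 2-fold line without the lymphocyte-high arrays, at 0.82. Of the 23 genes in the list of secreted hormones and peptides, 2 were 2-fold higher in BAT and 5 in iWAT, against 6.61% and 6.74% of all genes. The count towards BAT was near that share.

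Extracellular matrix genes were higher in iWAT nearly throughout. Of 40 matrix genes 27 were 2-fold higher in iWAT and 1 in BAT, against 6.74% and 6.61% of all genes. The list median was -1.19, and without the lymphocyte-high and muscle-high arrays the counts were 32 and 0. Thbs2 and Thbs1, the thrombospondins, differed by -3.31 and -2.82, and Lox, which crosslinks collagen, was 5.12 to 5.68 in BAT and 7.44, 7.49, 8.32 and 8.83 in iWAT (difference -2.65, SE 0.30, adjusted p = 1.2e-04). Bgn, the proteoglycan biglycan, differed by -2.49 with little spread. The single exception was Col12a1, a fibril-associated collagen, at 5.67, 6.64, 5.55 and 6.64 in BAT and 3.55, 3.90, 3.44 and 5.91 in iWAT. Its difference of 1.93 rested on all arrays together, since the adjusted p was 0.097 without iWAT arrays 1 and 2 and 0.073 without BAT arrays 2 and 3. Fat progenitor markers went with the matrix, with 5 of 10 genes 2-fold higher in iWAT and none in BAT. Dpt, the matrix protein dermatopontin, differed by -2.74 and Pdgfra, the receptor that marks fat progenitors, by -1.25. Cd55, a surface marker of interstitial progenitors that lymphocytes also carry, differed by -2.70 on all arrays and by -1.77 without the lymphocyte-high arrays. In whole tissue, more cells of a type and more RNA per cell cannot be told apart.

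Some Hox genes differed in each direction. Of 39 Hox genes 3 were 2-fold higher in BAT and 5 in iWAT, against 6.61% and 6.74% of all genes, and at the adjusted p alone 8 and 12, against 25.3% and 23.2%. The counts towards BAT were near or below those shares. The genes higher in BAT were the anterior members Hoxa4 (1.72), Hoxa5 (1.93) and Hoxc4 (1.21). Hoxa5 was 6.23, 6.00, 6.07 and 6.19 in BAT and 4.30, 3.95, 4.38 and 4.16 in iWAT (SE 0.11, adjusted p = 1.4e-06). The genes higher in iWAT carried larger paralog numbers, namely Hoxb6 (-1.24), Hoxc6 (-1.40), Hoxc8 (-2.13), Hoxc9 (-1.95) and Hoxc10 (-2.05). Hoxc10 was 2.89 to 3.29 in BAT and 4.76, 4.82, 5.46 and 5.38 in iWAT (SE 0.18, adjusted p = 2.0e-05), and Hoxc9 was 2.53 to 2.83 and 4.11 to 4.84. Hoxc8 varied in BAT, at 4.96, 6.00, 6.37 and 4.97 against 7.64 to 7.79 in iWAT, and its higher BAT values were those of the muscle-high arrays.

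The switch fell inside the Hoxc cluster. Hoxc4 was 5.42 to 5.61 in BAT against 4.15 to 4.48 in iWAT, its neighbour Hoxc5 was near the bottom of the range in both depots at 2.15 to 2.65 and 2.72 to 2.76 (difference -0.34, adjusted p = 0.038, or 0.13 without the lymphocyte-high arrays), and from Hoxc6 to Hoxc10 all measured genes were higher in iWAT. At the far end Hoxc11 and Hoxc12 were 0.22 and 0.46 higher in BAT. None of the Hoxd genes reached a 2-fold difference. Outside the Hox clusters, Tbx5, a limb and heart factor, was 1.32 higher in BAT and Emx2, a homeobox gene of forebrain and urogenital development, was 2.55 to 3.25 in iWAT against 1.69 to 1.98 in BAT, a difference of -1.0 that fell just under the 2-fold line. The Emx2 difference was past that line without the lymphocyte-high arrays, at -1.11 (limma adjusted p = 4.4e-04). It was also past the line without both kinds of array, at -1.05 (limma adjusted p = 0.0053). Of 32 other patterning genes, Zic1, Lhx8 and Tbx5 were the 3 that were 2-fold higher in BAT, close to the 6.61% of all genes, and none was in iWAT. Without the lymphocyte-high and muscle-high arrays the counts were 3 and 3.

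**Figure D4:**
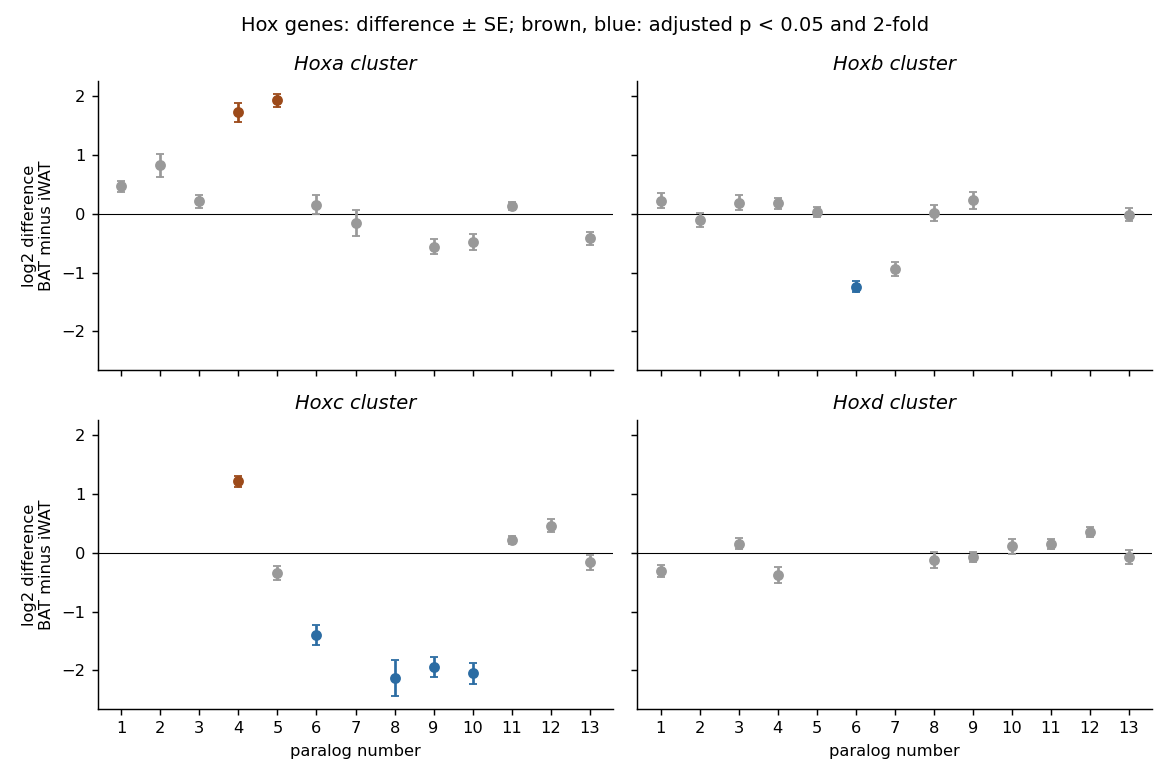
Log2 difference (BAT minus iWAT) with SE of 39 Hox genes, by cluster and paralog number. Hoxa4, Hoxa5 and Hoxc4 were higher in BAT, and Hoxb6 and Hoxc6 to Hoxc10 in iWAT, by at least 2-fold.

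A few microRNA genes differed. The array reads the hairpin or its host transcript and not the mature microRNA, so these values are levels of the gene. Of 12 measured microRNA genes tied to brown fat, muscle or the Hox clusters, 3 were 2-fold higher in BAT and none in iWAT, against 6.61% and 6.74% of all genes. Mir193b and Mir365-1, which lie next to each other on chromosome 16, moved together. Mir193b was 4.34, 3.99, 4.07 and 4.28 in BAT and 2.59, 2.1, 2.26 and 2.53 in iWAT (difference 1.80, SE 0.13, adjusted p = 6.9e-06). Mir365-1 was 4.78, 5.30, 4.00 and 4.75 in BAT and 2.21, 2.39, 2.45 and 2.56 in iWAT (difference 2.31, SE 0.23, adjusted p = 5.5e-05). Mir133b, known from muscle, was 3.36, 3.44, 3.41 and 2.91 in BAT and 2.02 to 2.37 in iWAT (difference 1.08). It was 0.92 without the lymphocyte-high arrays, 0.98 without the muscle-high arrays and 0.82 without both, each time past the adjusted p but under the 2-fold line. Mir615, which lies within Hoxc5, was 3.18 to 3.38 in BAT and 4.34, 3.69, 3.97 and 4.37 in iWAT, a difference of -0.82 (SE 0.15, adjusted p = 0.0019). It was thus higher in iWAT like Hoxc6 beyond it, and unlike Hoxc4 on its other side. The mature sequences of these 4 genes (RefSeq, GRCm38.p6, plus strand for all) are given with the seed, bases 2 to 8, in capitals, since the seed sets which transcripts a microRNA can pair with.
miR-193b-3p, chr16:13449570-13449591: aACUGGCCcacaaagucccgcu
miR-193b-5p, chr16:13449533-13449554: cGGGGUUUugagggcgagauga
miR-365-3p, chr16:13453895-13453916: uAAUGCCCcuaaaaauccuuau
miR-365-1-5p, chr16:13453855-13453877: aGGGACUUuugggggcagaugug
miR-133b-3p, chr1:20682834-20682855: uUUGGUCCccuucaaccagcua
miR-133b-5p, chr1:20682797-20682818: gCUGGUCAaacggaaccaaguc
miR-615-3p, chr15:103014969-103014990: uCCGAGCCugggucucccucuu
miR-615-5p, chr15:103014926-103014947: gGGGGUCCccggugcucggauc
No seed was shared among these 8 sequences, so the pair that moved together from chromosome 16 does not share its seed either.

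Macrophage genes were higher in iWAT on all 4 iWAT arrays, lymphocyte-high or not. Of 12 macrophage markers 9 were 2-fold higher in iWAT and none in BAT, against 6.74% and 6.61% of all genes, with a median of -1.80. Without the lymphocyte-high and muscle-high arrays 10 were 2-fold higher in iWAT. Cd68, a lysosomal protein of macrophages, was 5.69, 5.20, 5.32 and 5.55 in BAT and 8.42, 7.92, 8.67 and 9.31 in iWAT (difference -3.14, SE 0.26, adjusted p = 1.5e-05). C1qb, a complement subunit, differed by -2.23, Lyz2, the lysozyme of myeloid cells, by -2.14, and Itgam, an integrin of the same cells, by -2.02. The highest values of C1qb and Itgam were on iWAT arrays 3 and 4. Markers of lipid-laden macrophages were likewise 2-fold higher in iWAT for 7 of 10 genes, among them Gpnmb (-2.20) and Itgax (-1.98), and for 5 without the lymphocyte-high and muscle-high arrays. The list mean of macrophage markers ranged from 4.94 to 5.52 in BAT and from 6.15 to 7.58 in iWAT. Endothelial genes differed little on all arrays, with a median of -0.17 and 1 of 12 genes 2-fold higher in iWAT, against 6.74% of all genes. Without the lymphocyte-high and muscle-high arrays every endothelial gene leaned to iWAT, from -1.25 to -0.14 with a median of -0.43. Still only 1 reached 2-fold there. In the knockout littermates the endothelial median was -0.37, and 2 genes were 2-fold higher in iWAT. None of the keratinocyte, gland epithelium, mesothelium and erythroid genes on the lists was 2-fold apart.

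Lymphocyte genes, by contrast, rested on iWAT arrays 1 and 2. Cd79a, part of the B cell receptor, was 9.11 and 8.90 there, 3.81 and 3.43 on the other iWAT arrays and 2.24 to 2.58 in BAT, and Cd3e, part of the T cell receptor, was 8.47 and 8.66, 4.02 and 3.54, and 2.44 to 2.80. On arrays 3 and 4 alone they differed from BAT by -1.14 and -1.09. For T lymphocyte genes, 9 of 12 were 2-fold higher in iWAT on all arrays, against 6.74% of all genes, and 2 without the lymphocyte-high arrays. Ccl21a changed direction, from -1.64 on all arrays (adjusted p = 0.37) to 1.42 higher in BAT without them (adjusted p = 0.0017). The muscle genes Myh4, a fast myosin, and Atp2a1, the muscle calcium pump, reached 8.27 and 8.92 and 8.40 and 9.15 on BAT arrays 2 and 3, and neither passed the depot test (adjusted p = 0.20 and 0.13). Of 20 muscle genes 3 were 2-fold higher in BAT on all arrays, against 6.61% of all genes, and none without BAT arrays 2 and 3. Without those arrays 1 muscle gene was 2-fold higher in iWAT, and without both kinds of array 2 were.

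The Gpr146 knockout littermates, whose arrays had no part in the fit above, gave a second measurement of the depot difference. Their values came from the same table per depot as the wild-type values. An error shared by a whole table would therefore recur in them, and agreement between genotypes cannot tell it apart from the depot. In them 2632 genes (10.7%) passed the adjusted p and the 2-fold line, against 38.8% at the adjusted p alone (19.7% higher in BAT and 19.1% in iWAT). Of the former, 1405 were higher in BAT (5.70%) and 1227 in iWAT (4.98%). Of the genes higher in BAT in wild-type mice 1178 were called the same way in the knockout, which is 72.3% of the wild-type and 83.8% of the knockout genes. Of those higher in iWAT 976 were, which is 58.8% and 79.5%. No gene was called in opposite directions. Ucp1 differed by 7.86, Cox7a1 by 7.54, Lep by -2.75, Sfrp5 by -3.88, Hoxc9 by -2.56 and Hoxa5 by 1.66 in the knockout mice. The median difference was 3.43 for brown fat effectors, 1.83 for complex I, 1.99 for the citric acid cycle, 1.67 for fatty acid oxidation, -2.29 for white fat markers and -1.39 for the matrix. These shares used all wild-type arrays, the lymphocyte-high and muscle-high ones included, and no knockout array was left out either. In knockout mice the B and T lymphocyte lists had medians of -1.81 and -1.64. Of each, 4 of 12 genes were 2-fold higher in iWAT. The muscle list had a median of 1.21 there, with no gene 2-fold apart. The part of such genes in the calls shared by both genotypes was not tested.

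A test of whether the depot difference itself depended on genotype called no gene with limma at an adjusted p of 0.05, although 2524 genes had an unadjusted p under that value. With the mouse number as a block it called 1, the amino acid transporter Slc7a8, named after its value was seen (adjusted p = 0.045). Adrb3 was the only named gene past the threshold in knockout mice with a sign opposite to that in wild-type mice, at -1.81 (adjusted p = 3.5e-04) against 0.97, and the difference between genotypes did not pass (-2.76, adjusted p = 0.12). Prdm16, which had passed in wild-type mice, gave 0.39 in knockout mice (adjusted p = 0.070), and here too no difference between the genotypes was called.

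**Figure D5:**
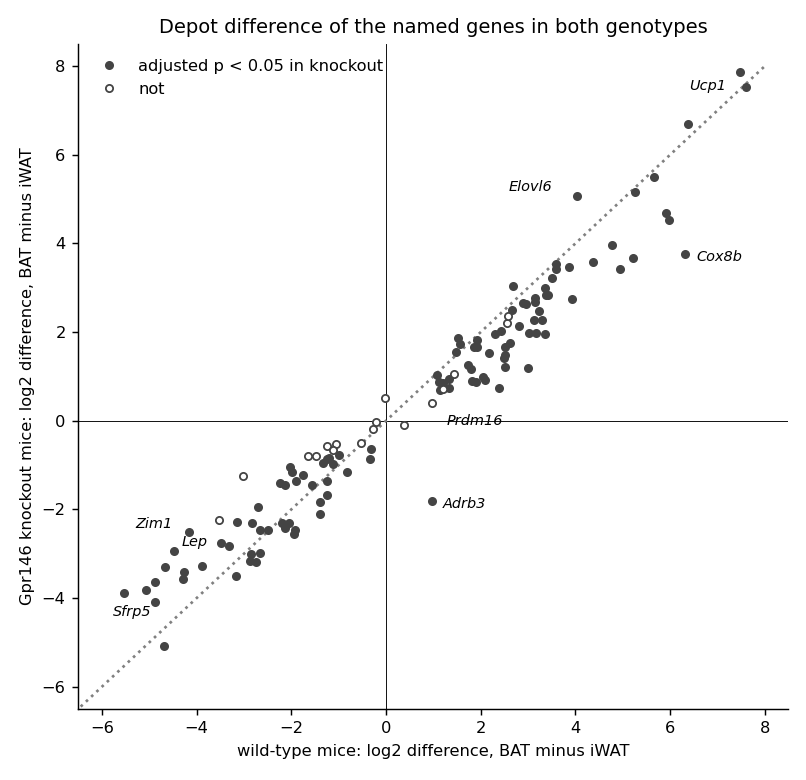
Log2 difference (BAT minus iWAT) of 127 named genes in wild-type mice (x axis) and in Gpr146 knockout littermates (y axis), filled where the knockout value passed an adjusted p of 0.05, with equal differences on the dotted line. The sign was the same in 124 of the 127 genes, with Adrb3, Pparg and Gpr146 as the others, and Adrb3 lay farthest from the line among those that changed it.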

How the data were processed

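RNA of BAT and iWAT from 4 wild-type and 4 Gpr146 knockout males (100 ng, biotin-labelled) was hybridised by the authors to Affymetrix Mouse Gene 2.1 ST arrays. The deposited log2 values had been normalized within each tissue by a method not given in the sources used here, as are probe summary and genome build. Deposited values came as 1 per symbol, and fractional probe identifiers mark 840 genes as means over more than 1 probe set. Of each tissue, 2 entries with a blank name or a name turned into a number were left out, leaving 24646 genes. Liver and eWAT tables were not used here.

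The 8 wild-type arrays were quantile normalized together and fitted with limma 3.58.1 (R 4.3.3), without a block, with Benjamini-Hochberg adjustment over all genes. Calls needed an adjusted p under 0.05 and, where stated, a log2 difference of at least 1. Knockout arrays were fitted apart in the same way, and the interaction with genotype on all 16 arrays. p-values cover the spread between mice, and the number of arrays limits the precision. On simulated data with 200 changed genes among 24646, 78.0% of 2-fold and 96.0% of 4-fold changes were found, with 12 false calls in 186. The changed genes lay above the median level, were balanced in direction and had noise independent between genes. In the depot data 48.5% of genes were called, so the simulation does not measure the error rate of the calls made here.

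Labels give BAT and iWAT of one animal the same mouse number. Deviations of same-numbered arrays from their group means correlated at 0.01, 0.03, 0.02 and -0.03 over genes. The block was tried as an alternative.

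Members and gene lists were chosen with earlier results of these data known. Genes named are a set of lead genes, the 10 largest differences per direction without overlap between depots (unnamed gene models left out), the 4 largest of each list with members called against it, and Hox and microRNA genes, of which those bearing on each comparison are printed. Symbols matched RefSeq (GRCm38.p6) directly for 21227 genes and by an older symbol for 2280. Alternatives were equal array medians, deposited values, percentile ranks, dim genes left out, another variance prior, the mouse block, each array left out, the methods' t-test and, chosen after seeing the data, leaving out arrays with high lymphocyte or muscle genes. Figures used matplotlib 3.10.9 (Python 3.11.15).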

Additional observations from a re-analysis of the deposited data

Results flagged for a closer look

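The 131 genes named in the text each gave a group of 4 BAT and a group of 4 iWAT arrays (262 groups). Of these groups 11 held a single array far from the other 3, no more than the about 1 in 20 that chance flags. In iWAT array 4, where muscle genes stood above the other iWAT arrays, these were Myh4 at 6.92, Atp2a1 at 6.26, Ryr2 at 3.51, Ppara at 3.39, Pank1 at 2.93, Bmp3 at 7.55 and Ucp2 at 7.16. Hoxc9 at 4.11 in iWAT array 2 and Fabp4 at 11.6 in iWAT array 1 were low for their group. In BAT, Atp5a1 was high at 10.7 in array 2 and Mir133b low at 2.91 in array 4. The part of muscle in the values of iWAT array 4 was not tested.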

How the results depend on the processing

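Scaling moved the counts most. With array medians made equal, 12900 genes were higher in BAT and 3664 in iWAT at the adjusted p. On the deposited values with no joint scaling 19740 genes passed, 1866 higher in BAT and 17874 in iWAT, and with the 2-fold line 6088, 735 and 5353. Leaving out genes under the median level gave 7802 calls, 4001 and 3801, and it tested fewer genes. Adipoq turned to 0.45 and Fabp4 to 0.90 with equal medians, and Fabp4 to 0.0498 on the deposited values, where the list medians of keratinocyte, mesothelium and erythroid genes turned to -0.25, -0.27 and -0.16. With equal medians Pparg, Adrb3, Ckmt2 and Sln passed in the direction higher in BAT, and Scd2, Hoxc5, Cpt1a and Clstn3 did not pass. On the deposited values Prdm16, Lhx8 and Col12a1 did not pass. Without the lymphocyte-high arrays Tnfrsf9, Scd2, Col12a1, Hoxc5, Cpt1a and Clstn3 did not pass, and Adipoq and Gpr146 did. Without the muscle-high arrays Tnfrsf9, Cd40, Sp100, Fabp4, Col12a1, Cd79a, Cd3e, Cpt1a and Clstn3 did not pass, and Sln did. Without both, Tnfrsf9, Sp100, Fabp4, Col12a1, Cpt1a and Clstn3 did not pass, Adipoq did, and Foxp1 was under the 2-fold line at -0.98. Ccl21a turned, past the threshold, to 1.42 without the lymphocyte-high arrays and to 1.25 without both kinds of array. The mouse number as a block gave 10969 genes in all and 3294 with the 2-fold line, changed the call of Adipoq (now passing) and Clstn3 (no longer passing) but of no other gene named, and gave 1 gene in the test by genotype, where equal medians and the other prior gave 0. Leaving out 1 array at a time gave 10413 to 11454 genes, and 3091 to 3521 with the 2-fold line. The methods' t-test gave 13050 genes unadjusted and 10817 adjusted. Counts fell by design where fewer genes or arrays entered, and otherwise the cause was not tested. Dim genes lie near background, where array signal limits what can be told apart.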
